A study of Mus musculus with 40 samples.

Results

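The 9 genes described here, *Pax6*, *Otx2*, *Sox2*, *Lhx2*, *Six3*, *Six6*, *Rax*, *Meis1* and *Meis2*, encode the transcription factors that set up the eye field and pattern the optic cup. They were chosen by gene symbol in the annotation of the array. They had 10 probes (*Sox2* has 2 and each other gene 1), out of 16593 genes and 25697 probes on the array. RNA of *Aey69* mutant mouse embryos and of their wild-type littermates (controls) was hybridized to Illumina MouseRef-8 v2.0 bead arrays, whose probes are DNA strands that each capture the labelled RNA of a gene. Whole embryos of E9.5 came from 4 mutants and 3 controls. Heads of E10.5 came from 4 mutants and 4 controls, and so did heads of E11.5. Tissue of the eye region of E12.5 came from 4 mutants and 3 controls, and eyes of E13.5 from 3 mutants and 3 controls. All animals were of the C3HeB/FeJ strain and received no treatment. The mutants descend from a chemical mutagenesis with ENU and carry a point mutation in the histone H3 gene *Hist2h3c1*. Other changes linked to it in this line cannot be told apart from it in this comparison. The labels call the embryos mutant without giving their zygosity. The 3 controls of E13.5 bear that age in their title, while further labels of theirs read E12.5, and they were grouped by the title. The tissue taken changed together with age except between E10.5 and E11.5, so at the other steps age and tissue cannot be told apart.

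During eye development, a single eye field forms in the anterior neural plate, splits, and grows out on both sides as the optic vesicles, which fold into optic cups while the overlying ectoderm forms the lens. *Rax*, *Six3*, *Pax6* and *Lhx2* are needed for early eye development, and mice without *Rax* or *Lhx2* have no eyes. *Lhx2* and *Pax6* keep retinal progenitors competent, *Six6* and *Sox2* act in the progenitors of the neural retina, and *Otx2* acts in the head neuroectoderm, the retinal pigment epithelium and early photoreceptors. *Meis1* and *Meis2* bind DNA together with Pbx proteins and regulate *Pax6* in the lens ectoderm and the retina. Each of these factors also acts elsewhere in the embryo, for example *Otx2* and *Lhx2* in the forebrain and *Meis1* and *Meis2* in limb, hindbrain and mesenchyme.

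Promoters are shown for 3 of the 9 genes: *Lhx2*, the gene called lower at E12.5, and *Otx2* and *Six3*. The latter were lower in every mutant than in every control at E13.5 but were not called. The same held there for *Lhx2*, *Rax* and *Meis1*, and 17.3% of all detected probes were lower without overlap. The RefSeq promoters used here (GRCm38.p6) are 300 bases long, from 250 before to 50 after a start site, and 13 of them matched 8 of the 9 genes. That of *Rax* was not analysed here. Both strands were searched for TGACAG, the core that MEIS proteins recognize, TAATTA, a homeodomain core bound by LIM and paired-like factors such as LHX2 and RAX, TAATCC, the OTX core, and ACAAAG, a SOX core. TAATTA reads the same on both strands. Capitals mark a match to any of these on either strand.
Lhx2, chr2:38339031-38339330, plus strand: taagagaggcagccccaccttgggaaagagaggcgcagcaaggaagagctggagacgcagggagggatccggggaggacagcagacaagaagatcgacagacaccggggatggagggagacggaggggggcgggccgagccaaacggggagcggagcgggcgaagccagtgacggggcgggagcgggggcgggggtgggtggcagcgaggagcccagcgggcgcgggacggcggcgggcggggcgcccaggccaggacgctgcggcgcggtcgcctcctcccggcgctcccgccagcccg
Lhx2, chr2:38351058-38351357, plus strand: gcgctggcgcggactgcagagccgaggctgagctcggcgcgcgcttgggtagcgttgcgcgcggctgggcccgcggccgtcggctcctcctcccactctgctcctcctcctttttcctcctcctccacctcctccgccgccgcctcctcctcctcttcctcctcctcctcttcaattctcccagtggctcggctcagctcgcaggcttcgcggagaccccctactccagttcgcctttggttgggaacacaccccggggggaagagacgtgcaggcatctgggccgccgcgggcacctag
Otx2, chr14:48665060-48665359, minus strand: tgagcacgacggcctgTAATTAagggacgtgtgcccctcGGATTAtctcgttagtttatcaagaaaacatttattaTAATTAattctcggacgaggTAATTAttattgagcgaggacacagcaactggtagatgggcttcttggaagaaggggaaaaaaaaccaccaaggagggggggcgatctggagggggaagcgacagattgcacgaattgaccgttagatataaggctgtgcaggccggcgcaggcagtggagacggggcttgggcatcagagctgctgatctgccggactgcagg
Six3, chr17:85620584-85620883, plus strand: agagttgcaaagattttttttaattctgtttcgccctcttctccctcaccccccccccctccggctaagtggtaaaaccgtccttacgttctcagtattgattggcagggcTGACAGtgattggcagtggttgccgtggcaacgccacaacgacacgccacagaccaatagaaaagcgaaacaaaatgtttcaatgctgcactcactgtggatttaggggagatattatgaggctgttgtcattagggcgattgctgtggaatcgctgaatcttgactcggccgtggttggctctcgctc
Neither *Lhx2* promoter held any of the 4 motifs, and their G and C content was 74.7% and 69.3%. The *Otx2* promoter shown had the most matches of the 4 of this gene, and held TAATTA 3 times and TAATCC 1 time. Another *Otx2* promoter held TAATTA 1 time, and the rest held none of the 4 motifs. The *Six3* promoter held TGACAG at bases -139 to -134 from the start. TGACAG was found in 4 of the 13 promoters (*Pax6*, *Sox2*, *Six3* and *Six6*), against 19.2% of all 32851 promoters of this length. TAATTA was found in 2 of 13, both of them promoters of *Otx2*, against 5.29% of all. TAATCC was found in 1 of 13, also of *Otx2*, against 7.06%, and ACAAAG in 2 of 13 (*Pax6* and *Sox2*), against 18.7%. In the second *Pax6* promoter the TGACAG and ACAAAG matches overlap by 1 base. A match says only that these letters occur in the window.

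Levels are given as log2 of the normalized signal, and a difference between genotypes as mutants minus controls on that scale. A probe counted as detected on an array when its detection p, from the negative control beads, was under 0.05. Between 44.6% and 54.9% of all probes were detected on each of the 36 arrays used. The *Pax6* probe was detected on 0 of these 36 arrays, with log2 signals of 3.98 to 4.92, and the *Six6* probe on 1 of them, a mutant of E13.5 with 5.02. These probes therefore give no level for *Pax6* or *Six6*, and this says nothing of whether the genes were transcribed. The probe for *Rax* was detected on 1 of the 23 arrays from E9.5 to E11.5, that for *Six3* on 2 of the 15 arrays of E9.5 and E10.5, and that for *Lhx2* on 2 of the 7 arrays of E9.5. *Otx2*, *Meis1* and *Meis2* were detected on all 36 arrays.

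Some arrays stood apart within their group. The summed signal of 3 erythroid genes was 3690 in control array 2 of E12.5, against 48600 and 40400 in the other controls of that stage. The mutants of that stage had 4100 to 13000. Without control array 2 the number of probes called at E12.5 was 4729 in place of 68, and without control array 4 of E13.5 it was 1808 in place of 232. At E11.5 the same erythroid sum was 2900 and 3060 in mutant arrays 3 and 4, against 47000 and 48400 in mutant arrays 2 and 5. Among the controls of E11.5 it was 6790 and 8840 in arrays 2 and 3, against 43000 and 45900 in arrays 4 and 5. At E10.5 it was 12000 in mutant array 5, against 46500 to 50400 in the other mutants, and 3340 in control array 5, against 50100 to 51700 in the other controls. At E9.5 it was 8430 in mutant array 4, against 44600 to 49100 in the other mutants. Values without single arrays are given below for *Lhx2*, *Rax*, *Six3* and *Sox2*. The authors left out 4 further arrays, whose values are given where they bear on a result.

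Genes were called at a limma false discovery rate of 10% (Benjamini-Hochberg over all probes) if a probe was also detected in at least 2 of 3 or 3 of 4 arrays of either genotype. By this rule *Lhx2* fell at E12.5, and no other member was called between mutants and controls at any stage. At E9.5, 0 of the 4 detected members were called and 0% of all 12901 detected probes; at E10.5, 0 of 5 members and 0% of 13173 probes. At E11.5, 0 of 6 members were called, against 0.0759% of 13183 probes. At E12.5, 1 of 7 members was called, against 0.489% of 13898 probes called in either direction and 0.425% called lower. At E13.5, 0 of 7 members were called, against 1.61% of 14397 probes in either direction and 1.15% lower. Without adjustment, p was under 0.05 for 0, 0, 1, 1 and 6 members from E9.5 to E13.5, against 10.6%, 1.12%, 9.57%, 14.3% and 22.5% of detected probes. The median difference of the detected member probes was -0.09, 0.04, -0.15, 0.13 and -0.43 from E9.5 to E13.5, against 0.01, 0.01, 0.04, 0.03 and -0.03 over all detected probes. At E12.5 mutants and controls did not overlap for 2 members, *Lhx2* and *Rax*, against 15% of all detected probes. At E13.5 they did not overlap for 6 members, 5 of them lower in the mutants, against 31.3% of all detected probes without overlap and 17.3% without overlap and lower.

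*Lhx2*, which encodes a LIM-homeodomain factor, was the member with the clearest difference in the eye region. At E12.5 its log2 signals were 7.08, 6.83, 6.85 and 6.83 in the mutants, against 7.80, 7.83 and 8.21 in the controls. Every mutant lay below every control, and 3 of the 4 mutants lay within 0.02 of each other. Mutants averaged 6.90 ± 0.12 (SD, n = 4), against 7.95 ± 0.22 (SD, n = 3) for controls, a difference of -1.05 (SE 0.16, limma adjusted p = 0.0662), or 2.07-fold lower. At E13.5 the signals were 6.12, 5.67 and 5.75 in the mutants, against 6.36, 6.63 and 6.53 in the controls. The groups again did not overlap, with a difference of -0.66 (SE 0.15, 95% interval -1.01 to -0.32) that missed the threshold (limma adjusted p = 0.128).

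At the earlier stages the *Lhx2* signals of the genotypes overlapped. At E11.5 they were 6.96, 5.59, 5.83 and 6.96 in the mutants and 6.19, 6.78, 6.60 and 6.97 in the controls. The mutants fell into 2 with signals like the highest controls and 2, arrays 3 and 4, below all controls. Arrays 3 and 4 were the mutants with the low erythroid sum. Control arrays 2 and 3 also had low sums, 6790 and 8840, with *Lhx2* signals of 6.19 and 6.78. At E10.5 the range was 5.22 to 6.21 in mutants and 5.25 to 6.14 in controls. The change of the genotype difference was -0.75 (SE 0.38) between E11.5 and E12.5 (limma adjusted p = 0.725), so the difference at E12.5 was not shown to be larger than that at E11.5.

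The call of *Lhx2* at E12.5 was narrow. Without control array 2 of that stage, the difference was -1.12 with a limma adjusted p = 0.00356. Without mutant array 1, 3, 4 or 5, the adjusted p was 0.168, 0.326, 0.26 and 0.214 in that order, and without control array 3 or 5 it was 0.183 and 0.231. Over all 7 such fits the difference stayed between -1.12 and -0.93. Control array 4 of E12.5, which the authors left out for atypical eye marker expression, had an *Lhx2* signal of 6.71 when all 40 arrays were normalized together, against 7.74 to 8.15 in the kept controls. With the arrays that the authors left out included, the difference was -0.76 and was not called (limma adjusted p = 0.426).

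**Figure D1:**
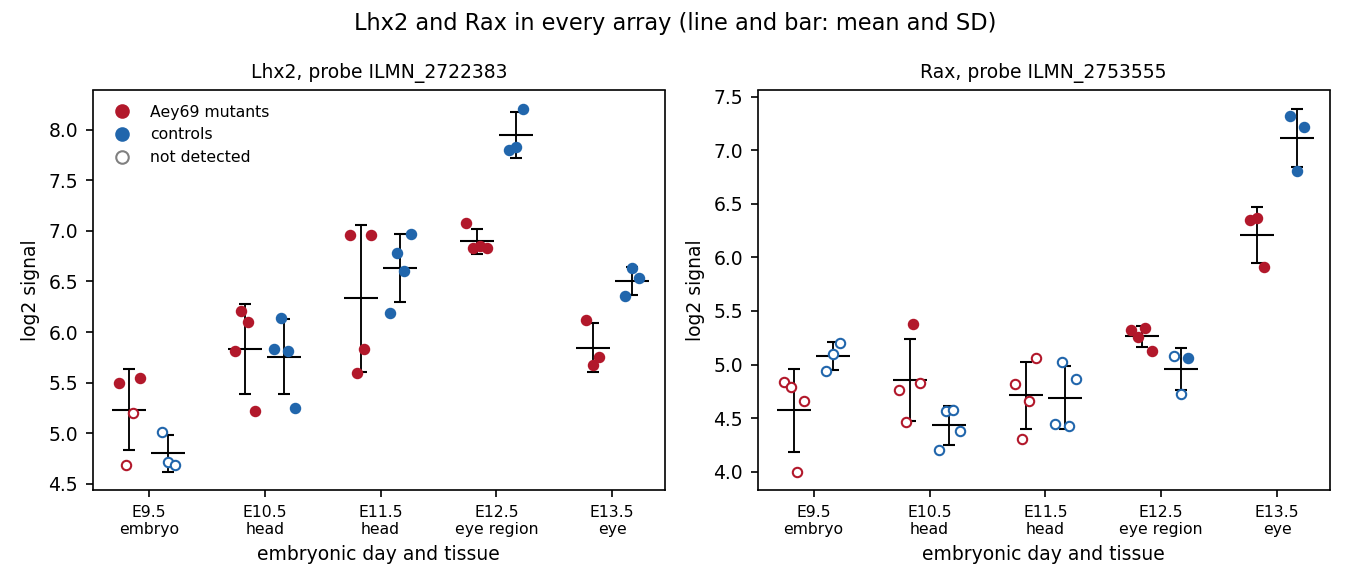
Log2 signal of *Lhx2* and *Rax* in each of the 36 arrays by embryonic day and tissue, with mutants to the left of controls, filled points where the probe was detected, and lines and bars for the mean and SD. *Lhx2* mutants lie between 6.83 and 7.08 at E12.5, below all controls, and *Rax* mutants lie between 5.91 and 6.37 at E13.5, below all controls.

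*Rax*, which encodes the retina and anterior neural fold homeobox factor, was the member whose genotype difference changed between stages. At E12.5 its log2 signals were 5.32, 5.26, 5.34 and 5.13 in the mutants, against 5.08, 4.73 and 5.06 in the controls. Every mutant was slightly higher than every control, and the probe was detected on 4 of 4 mutant and 1 of 3 control arrays. The difference of 0.31 (SE 0.15, 95% interval -0.03 to 0.64) was not called (limma adjusted p = 0.562). At E13.5 the signals were 6.35, 6.37 and 5.91 in the mutants, against 7.32, 6.81 and 7.22 in the controls. Here every mutant was below every control. Mutants averaged 6.21 ± 0.26 (SD, n = 3), against 7.12 ± 0.27 (SD, n = 3) for controls, a difference of -0.91 (SE 0.18, 95% interval -1.33 to -0.48) that narrowly missed the threshold (limma adjusted p = 0.105).

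The genotype difference of *Rax* changed by -1.21 (SE 0.30) between E12.5 and E13.5, an interaction that was called (limma adjusted p = 0.0426). Among the members, 0, 0, 0 and 1 had such a called change at the successive stage steps, against 0.0145%, 0.00721%, 0.712% and 2.6% of detected probes. Between E12.5 and E13.5 the *Rax* signal rose by 0.95 (SE 0.21, limma adjusted p = 0.00105) in mutants and by 2.16 (SE 0.22, limma adjusted p = 2.4e-08) in controls. The control rise and the interaction rest on an E12.5 level that was detected on 1 of 3 control arrays, so their exact size is uncertain. The interaction was lost without mutant array 5 of E13.5 (-1.06, limma adjusted p = 0.171), control array 3 of E12.5 (-1.10, adjusted p = 0.116), control array 2 of E13.5 (-1.11, adjusted p = 0.142) or control array 5 of E13.5 (-1.16, adjusted p = 0.115). Without control array 4 of E13.5 the difference at E13.5 was -1.06 and was called (limma adjusted p = 0.0201).

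Mutant array 3 of E13.5, left out by the authors for atypical eye marker expression, had a *Rax* signal of 7.66, above the kept mutants and above the highest kept control of 7.25. Control array 3 of E13.5, left out for quality, had 4.17 and no detection. With these arrays included, the *Rax* difference at E13.5 was 0.20 (limma adjusted p = 0.939) and the interaction was -0.11 (limma adjusted p = 0.949). The *Rax* difference at E13.5 thus changed sign when the excluded arrays were added together, among them this control without a detected *Rax* signal. Only 26.2% of probes were detected on that control array. A fit that added the mutant array alone was not run. In the mutant array left out, *Lhx2* had 4.98 and was not detected, and *Otx2* had 7.27, both below the kept mutants.

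*Six3* and *Otx2* had lower signals in every mutant than in every control at E13.5, and neither was called. *Six3*, which encodes a sine oculis-related homeodomain factor that represses Wnt signaling in the anterior neural plate, had log2 signals of 5.20, 5.40 and 5.33 in the mutants, against 6.13, 5.65 and 5.78 in the controls. The difference was -0.55 (SE 0.15, limma adjusted p = 0.157). Without control array 4 of E13.5 it was -0.65 and was called (limma adjusted p = 0.0619). *Otx2*, which encodes an orthodenticle-related homeodomain factor, had 8.41, 8.08 and 7.87 in the mutants, against 8.61, 8.83 and 8.48 in the controls. Its difference was -0.52 (SE 0.17, limma adjusted p = 0.2). At E12.5 both genes overlapped between genotypes. *Otx2* then had 9.61 to 10.47 in mutants and 9.98 to 10.30 in controls, and *Six3* had 5.86 to 6.35 in mutants and 5.47 to 6.98 in controls.

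The MEIS genes, which encode TALE-homeodomain partners of Pbx proteins, differed in opposite directions at E13.5, and neither was called. *Meis1* had log2 signals of 10.52, 10.66 and 10.36 in the mutants, against 10.94, 10.77 and 10.87 in the controls, a difference of -0.35 (SE 0.12, limma adjusted p = 0.233). *Meis2* had 11.12, 10.91 and 10.96 in the mutants, against 10.40, 10.63 and 10.84 in the controls, a difference of 0.37 (SE 0.14, limma adjusted p = 0.257). Neither gene's groups overlapped at E13.5. In contrast, at E11.5 *Meis2* was the member with an unadjusted p under 0.05. It had 11.22, 10.88, 10.74 and 11.14 in the mutants, against 11.34, 11.52, 11.86 and 11.20 in the controls, and the difference of -0.49 (SE 0.18) was not called (limma adjusted p = 0.658). The highest mutant lay above the lowest control there. At E12.5, *Meis1* had 10.24 to 10.82 in mutants and 9.92 to 10.49 in controls.

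**Figure D2:**
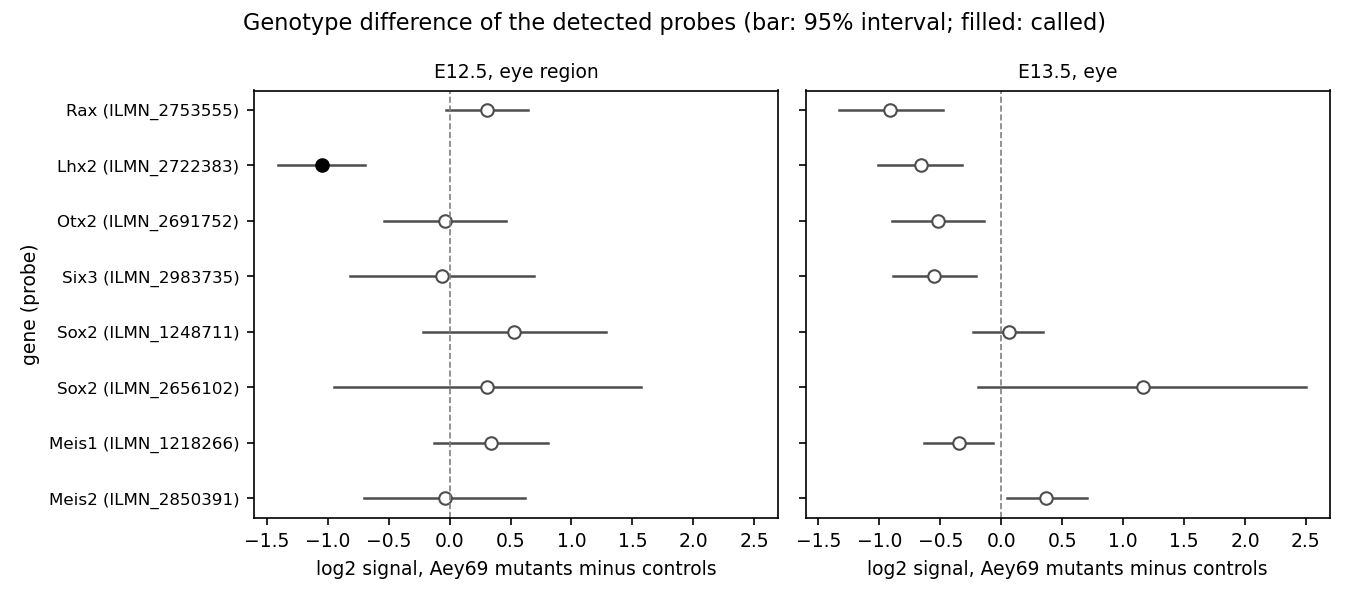
Difference in log2 signal between mutants and controls at E12.5 and E13.5 for the 8 detected member probes, with 95% intervals and a filled point where the gene was called. *Lhx2* at E12.5 (-1.05) is the filled point, and at E13.5 *Rax*, *Lhx2*, *Otx2*, *Six3* and *Meis1* lie below 0 and *Meis2* above it, with intervals that do not reach 0.

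*Sox2*, which encodes an HMG-box factor of neural and retinal progenitors, was measured by 2 probes that varied widely among replicates. With probe ILMN_2656102, which had the higher mean signal, the log2 signals at E11.5 were 7.97, 5.53, 5.98 and 7.98 in the mutants, against 7.73, 7.98, 8.57 and 7.66 in the controls. The low mutants were again arrays 3 and 4. At E10.5 this probe gave 8.51, 8.31, 5.29 and 6.32 in the mutants and 8.40, 8.48, 8.31 and 5.65 in the controls, so that each genotype held arrays near 8 and others below 7. At E12.5 it gave 7.29 to 8.03 in mutants and 5.76, 7.41 and 8.57 in controls, and the low control was array 2. The difference was -0.60 (SE 0.79) at E10.5, -1.12 (SE 0.52) at E11.5 and 0.31 (SE 0.55) at E12.5, and none was called (limma adjusted p of 1, 0.658 and 0.922 in that order). When each array was left out in turn, the difference was -1.29 to 0.00 at E10.5, -1.49 to -0.68 at E11.5 and -0.43 to 0.98 at E12.5. The -1.29 came without control array 5 of E10.5 and the 0.00 without mutant array 4. At E12.5 the sign turned without control array 2 (-0.43, limma adjusted p = 0.386), so this probe gave no settled direction there. Some arrays with a low erythroid sum had a low *Sox2* signal by this probe, and others did not. The mutants of E12.5 had erythroid sums of 4100 to 13000 and *Sox2* signals of 7.29 to 8.03. Control arrays 2 and 3 of E11.5 had sums of 6790 and 8840 and *Sox2* signals of 7.73 and 7.98. Mutant array 4 of E10.5 had a sum of 49500 and a *Sox2* signal of 5.29. The part of the erythroid signal in these values was not tested.

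In the eyes of E13.5 the *Sox2* probes gave different genotype values. Probe ILMN_2656102 gave 6.19, 5.89 and 5.87 in the mutants, against 4.95, 6.16 and 3.37 in the controls, of which only the 6.16 was detected. The difference was 1.16 (SE 0.58, limma adjusted p = 0.38), and only 1 of the 3 controls measured it. Without that control, array 4, the probe was detected on 0 of 2 controls and the gene was called (limma adjusted p = 0.0571). The difference is then only a bound, at least 1.92-fold higher in mutants, with undetected controls set no lower than the lowest detected signal of their array. Probe ILMN_1248711 gave 5.86, 5.63 and 5.59 in the mutants, against 5.65, 5.74 and 5.51 in the controls, all detected, with a difference of 0.06 (SE 0.12, limma adjusted p = 0.865). The 95% interval of this probe was -0.23 to 0.34, and that of ILMN_2656102 was -0.19 to 2.50.

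**Figure D3:**
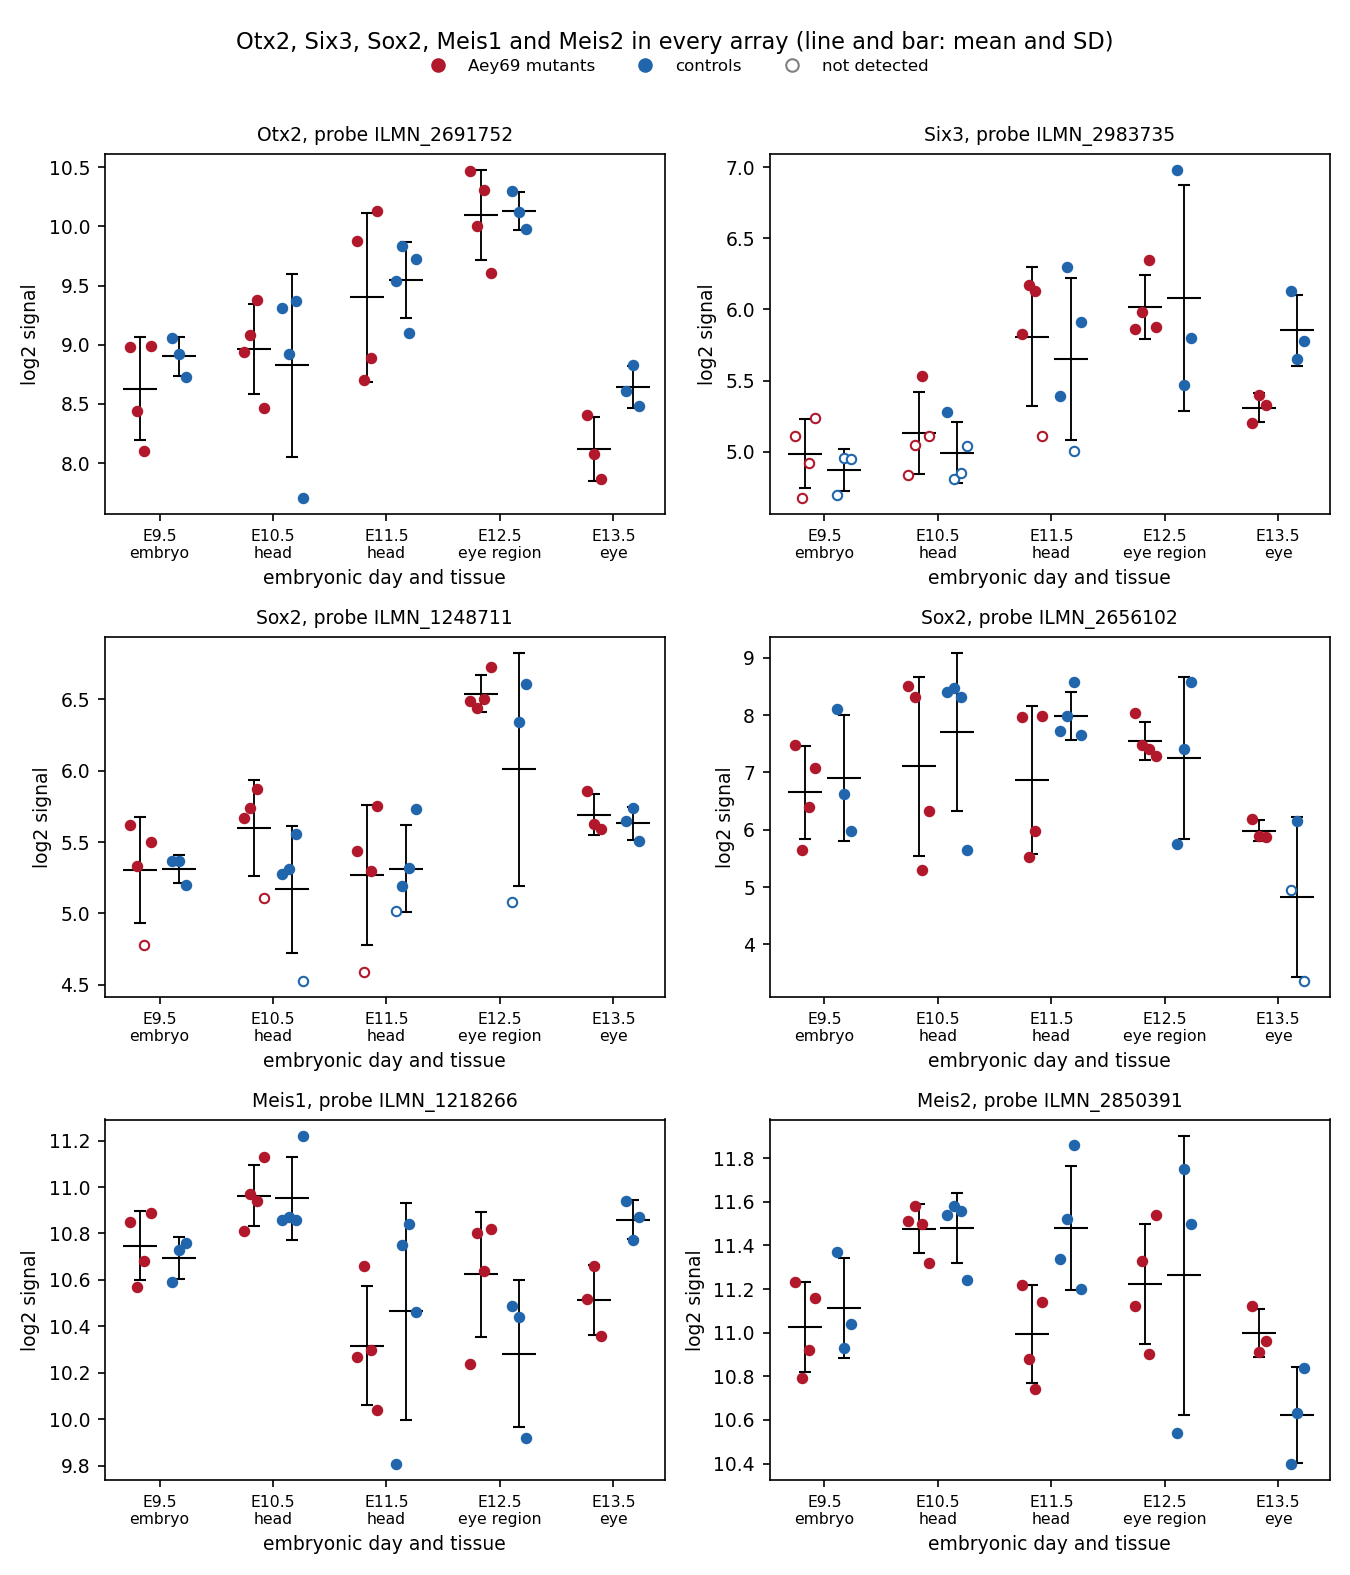
Log2 signal of *Otx2*, *Six3*, both *Sox2* probes, *Meis1* and *Meis2* in each of the 36 arrays by embryonic day and tissue, with mutants to the left of controls, open points where the probe was not detected, and lines and bars for the mean and SD. The panels have different scales; *Sox2* probe ILMN_2656102 spans 5.29 to 8.51 within the mutants of E10.5, and *Otx2* is at 7.87 to 8.83 in all arrays of E13.5, below all arrays of E12.5.

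The levels by stage are given for these tissues, with age and tissue changing together. When the 10 group means of a probe were ordered, neighbouring groups without overlap were found only for *Lhx2* and *Rax*. For the other members this order does not settle which group was highest. Between adjacent stages, 9 changes of members were called in mutants and 9 in controls (limma, 1 model with 10 groups). In mutants 0, 3, 1 and 5 members were called at the successive steps, against 3.5%, 31%, 11.1% and 41.5% of detected probes. In controls the counts were 1, 1, 1 and 6, against 6.11%, 13.4%, 16.3% and 23% of detected probes. With all 40 arrays the counts were 4 in mutants and 5 in controls.

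*Lhx2* made up each of the first 3 changes in controls. It was detected on 0 of 3 controls at E9.5 and on 4 of 4 at E10.5, where it was at least 1.51-fold higher (limma adjusted p = 0.064). It rose by 0.88 (SE 0.26, limma adjusted p = 0.0358) to E11.5 and by 1.31 (SE 0.28, adjusted p = 0.00294) to E12.5, and it then fell by 1.44 (SE 0.30, adjusted p = 9.6e-04) to E13.5. In mutants the first 3 differences were 0.60, 0.50 and 0.56 and were not called (limma adjusted p of 0.23, 0.213 and 0.265), and at the last step *Lhx2* fell by 1.06 (SE 0.28, adjusted p = 0.00556). The genotypes were not shown to differ in any of these steps (limma adjusted p of the interaction 0.879, 0.88, 0.725 and 0.763). Over the 10 groups the controls of E12.5 had the highest mean, 7.95, and did not overlap with the next group, the mutants of E12.5 at 6.90. The neighbours below them overlapped at each step of the order, down to 4.80 ± 0.18 (SD, n = 3) in controls of E9.5.

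For *Rax* the order was led by the controls of E13.5 at 7.12, followed by the mutants of E13.5 at 6.21 and the mutants of E12.5 at 5.26, and these neighbours did not overlap. The other 7 groups, at 4.43 to 5.08, overlapped with their neighbours and were mostly not detected. *Otx2* had its highest means at E12.5, 10.10 ± 0.38 (SD, n = 4) in mutants, against 10.14 ± 0.16 (SD, n = 3) in the controls. It then fell by 1.97 (SE 0.33, limma adjusted p = 3.1e-05) in mutants and by 1.49 (SE 0.35, limma adjusted p = 0.00372) in controls to E13.5. In mutants, *Six3* rose by 0.68 (SE 0.26, limma adjusted p = 0.0834) in heads of E11.5 against those of E10.5, where it was detected on 1 of 4 arrays. It fell by 0.71 (SE 0.28, limma adjusted p = 0.0739) in mutant eyes of E13.5 against the eye region of E12.5. Between E10.5 and E11.5, where the tissue was the head at both stages, *Meis1* fell by 0.64 (SE 0.17, limma adjusted p = 0.0119) and *Meis2* by 0.48 (SE 0.19, adjusted p = 0.0884) in mutants. The change of their genotype difference over this step was -0.15 (SE 0.25) and -0.49 (SE 0.27) and was not called (limma adjusted p of 0.919 and 0.874).

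From E12.5 to E13.5 *Meis1* rose by 0.58 (SE 0.20, limma adjusted p = 0.0621) and *Meis2* fell by 0.64 (SE 0.22, adjusted p = 0.0549) in controls. *Sox2* fell by 2.42 (SE 0.82, limma adjusted p = 0.0555) in controls by probe ILMN_2656102, which was detected on 1 of 3 of these arrays at E13.5, so the size of the fall is uncertain. By probe ILMN_1248711, detected on all 3, the difference was -0.37 (SE 0.30) and was not called (limma adjusted p = 0.521). In mutants, *Sox2* by probe ILMN_1248711 rose by 1.27 (SE 0.26, limma adjusted p = 0.00327) to E12.5 and fell by 0.85 (SE 0.28, adjusted p = 0.0282) to E13.5. In these bulk samples fewer cells of a type and less RNA per cell cannot be told apart.

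Before the eye region was dissected, the members detected at the earlier stages overlapped between genotypes. At E9.5, in whole embryos, *Otx2* had log2 signals of 8.98, 8.44, 8.10 and 8.99 in the mutants and 9.06, 8.92 and 8.73 in the controls. *Meis1* then had 10.85, 10.57, 10.68 and 10.89 in the mutants and 10.59, 10.73 and 10.76 in the controls. In heads of E10.5, *Otx2* had 8.94, 9.08, 9.38 and 8.47 in the mutants and 9.31, 8.92, 9.37 and 7.71 in the controls. The lowest of these was control array 5, the control with the low erythroid sum, which also had the highest *Meis1* signal of its group (11.22, against 10.86 to 10.87). In heads of E11.5, *Otx2* had 9.88, 8.70, 8.89 and 10.13 in the mutants and 9.54, 9.83, 9.10 and 9.72 in the controls. Mutant arrays 3 and 4 were low for *Otx2* as they were for *Lhx2* and *Sox2*. *Meis1* did not follow them, with 10.66 and 10.30 in these arrays, against 10.27 and 10.04 in the other mutants. *Six3* was detected in 3 of 4 mutants and 3 of 4 controls at E11.5, with 5.11 to 6.17 in mutants and 5.01 to 6.30 in controls. The *Otx2* difference was -0.27, 0.14 and -0.15 at E9.5, E10.5 and E11.5, and no member was called at these stages.

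Close relatives of the members, which share their DNA-binding domains, had no called gene. Of the 11 relatives listed, 10 had a probe, and 0 were called in either direction at any of the 5 stages. *Lhx9*, the LIM-homeodomain gene closest to *Lhx2*, had 5.52 in mutants and 6.78 in controls at E12.5 (means), without overlap. Its difference was -1.25 (SE 0.36) and was not called (limma adjusted p = 0.344). At E13.5 *Crx*, the photoreceptor relative of *Otx2*, had a difference of -0.50 (SE 0.13, limma adjusted p = 0.147), and *Otx1* had -0.49 (SE 0.14, adjusted p = 0.164). Both were lower in every mutant than in every control. *Meis3* differed by 0.32 (SE 0.16) at E12.5 and by 0.33 (SE 0.14) at E13.5 (limma adjusted p of 0.582 and 0.295).

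Of 21 binding partners and cofactors (Pbx, Pknox, Tgif, Ldb, Groucho-related Tle, Eya and Dach genes among them), 20 had a probe, 18 were detected at E12.5 and likewise at E13.5, and 0 were called at any stage. At E12.5 their median difference was -0.06, against 0.03 over all detected probes, and at E13.5 it was 0.03, against -0.03. The smallest p values at E13.5 were those of *Eya2*, a cofactor of sine oculis-related factors (-0.43, SE 0.11), *Pbx3*, a Meis partner (0.63, SE 0.17), *Tle3*, a corepressor (1.18, SE 0.33), and *Ldb2*, which binds LIM domains (0.55, SE 0.19). Their limma adjusted p was 0.15, 0.152, 0.168 and 0.233.

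Of 17 other eye field and optic cup genes, 14 had a probe and 12 were detected at E13.5, where 1 was called. *Sfrp1*, which encodes a secreted Wnt inhibitor, fell at E13.5, with 10.43 in mutants and 11.35 in controls (means), a difference of -0.92 (SE 0.13, limma adjusted p = 0.037). At E12.5 its difference was -0.89 (SE 0.28, limma adjusted p = 0.39), also without overlap. At E13.5 *Aldh1a3*, a retinoic acid synthesis enzyme of the optic cup, differed by -0.77 (SE 0.17, limma adjusted p = 0.123), *Nr2e1*, a progenitor nuclear receptor, by -0.63 (SE 0.13, adjusted p = 0.109) and *Tbx3*, a dorsal optic cup factor, by 1.21 (SE 0.26, adjusted p = 0.115). None of these 3 was called, and each was without overlap between genotypes. At E9.5 to E12.5, 0 of these genes were called.

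Markers of other cell types moved with the genotype at the stages where *Lhx2* and *Rax* differed. Of 9 lens genes, all with a probe, 5 fell at E12.5 and 6 at E13.5. Their summed linear signal was 434 to 493 in mutants and 2670 to 4600 in controls at E12.5, and 285 to 292 in mutants and 57200 to 72800 in controls at E13.5. *Cryaa*, which encodes αA-crystallin, was detected on 0 of 4 mutant arrays at E12.5. Of 8 periocular mesenchyme genes measured, 2 fell at E12.5 and 0 were called at E13.5. Their sum was 1390 to 2480 in mutants and 5380 to 6840 in controls at E12.5, and 11800 to 14600 in mutants and 9970 to 12300 in controls at E13.5. Of 6 forebrain and hypothalamus genes, *Fgf8* rose at E12.5, and the sum was 1930 to 2500 in mutants and 938 to 2110 in controls. At E13.5 the forebrain sum was 719 to 903 in mutants and 431 to 668 in controls, without overlap and with 0 genes called. The surface ectoderm sum at E12.5 was 1110 to 1220 in mutants and 1890 to 3000 in controls. The skeletal muscle sum was then 506 to 1140 in mutants and 1190 to 2800 in controls, with 1 gene called lower in each list. At E13.5 the genotypes overlapped in both sums, and the higher values were those of the mutants. The ectoderm sum was 5180 to 6890 in mutants and 3550 to 5480 in controls, with 1 gene called lower. The muscle sum was 4900 to 7850 in mutants and 2510 to 5200 in controls, with 0 genes called. Of 5 retinal pigment epithelium genes, 0 were called. Their median difference at E13.5 was -0.68, and their sum was 1580 to 1780 in mutants and 2220 to 3630 in controls. Of 7 ganglion cell and early neuron genes measured, 0 were called, with sums of 2300 to 2620 in mutants and 2500 to 5310 in controls at E13.5. The part of these cell types in the values of the 9 genes was not tested.

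**Figure D4:**
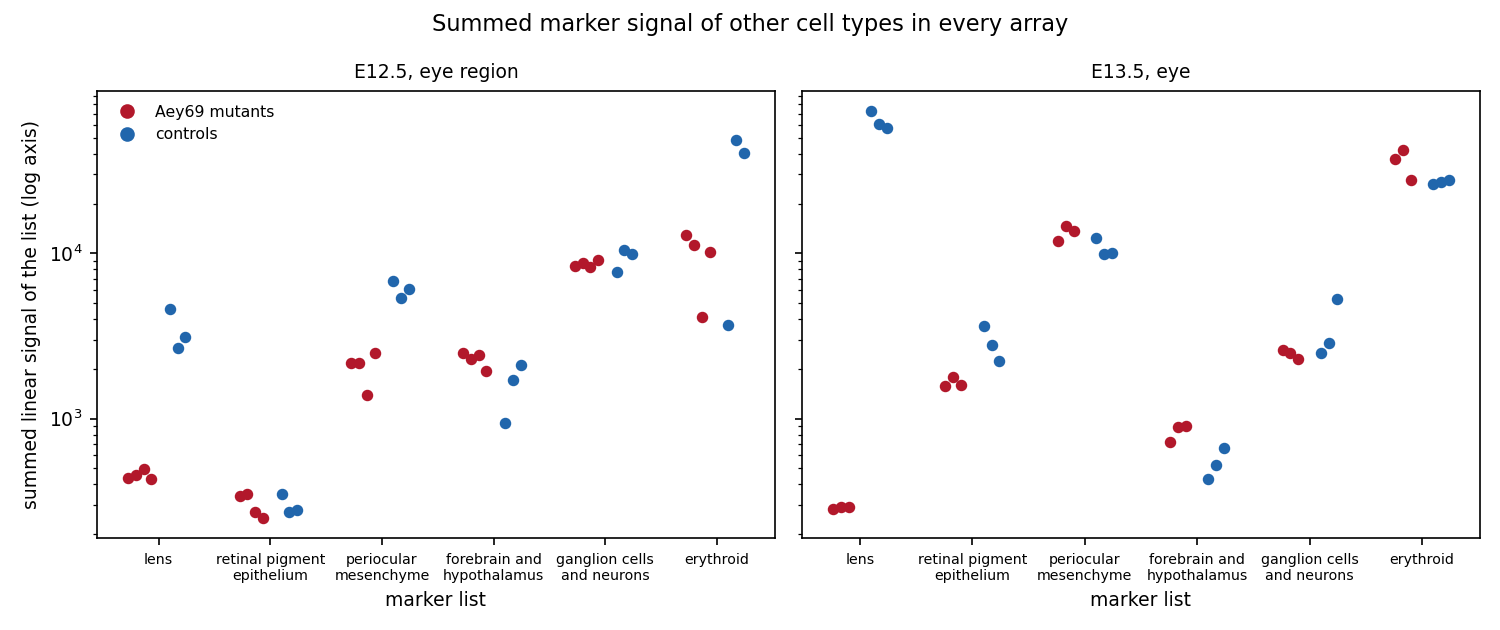
Summed linear signal (log axis) of marker lists of other cell types in each array of E12.5 and E13.5, with mutants to the left of controls and each point 1 array. The lens sum is 285 to 292 in mutants and 57200 to 72800 in controls at E13.5, and the erythroid sum of 1 control of E12.5 is 3690, against 48600 and 40400 in the other controls.

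As a description of which genes had profiles like the members, Pearson's r was taken over all 36 arrays against 10673 detected genes. These arrays share stage, tissue and genotype groups, so a high r can come from the groups. *Rax* was most like *Aldh1a3* (r = 0.94), *Aldh1a7* (0.91) and *Dkk3* (0.91). By ranks (Spearman's rho) these values were 0.84, 0.67 and 0.70, and the *Rax* probe was mostly not detected before E12.5. *Lhx2* was most like *Id4* (0.93), which encodes an inhibitor of bHLH factors, *Syt1* (0.91), a synaptic vesicle protein gene, and *Rtn1* (0.90). *Otx2* was most like *Zswim5* (0.91), *Cntnap2* (0.89) and *Lmo3* (0.87). *Sox2* by probe ILMN_2656102 was most like *Fgfr3* (0.93), *Chmp1b* (0.87) and *Klhl24* (0.86). With the other *Sox2* probe, ILMN_1248711, it had an r of only 0.28 over the 36 arrays, so these genes describe that probe alone. *Six3* was most like *Rtl6* (0.89), *Kazn* (0.88) and *Pnma3* (0.88). *Meis2* was most like *Wasf1* (0.85), *Chmp1b* (0.84) and *Sap30* (0.81). For *Meis1* the values were lower, with 0.74 for *Hoxd4*, 0.70 for *Cox6a2* and 0.69 for *Meox1*.

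Among the members themselves, deviations of the arrays from their own group means were most alike for *Otx2* and *Lhx2* (r = 0.74, n = 36), for *Lhx2* and *Sox2* by probe ILMN_1248711 (r = 0.65), and for *Lhx2* and *Sox2* by probe ILMN_2656102 (r = 0.63). *Six3* and *Meis2* deviated in opposite directions (r = -0.62). Since group means were removed, these values describe differences among replicates, and arrays of one group share neither a known slide nor a known dissection.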

How the data were processed

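RNA of 40 samples was hybridized by the authors to Illumina MouseRef-8 v2.0 arrays, and 36 were used here, without the 4 that the authors excluded. The deposited background-subtracted signal intensity per probe (from -21 to 28964) and its deposited detection p-value came from GenomeStudio. Columns were joined to genotype and stage by name, with 0 signal columns left unmapped. Array numbers are the authors' own and not the replicate numbers of the titles. The deposited processed table holds values that the authors quantile-normalized after an offset, as linear signal intensity. Here an offset of 22 preceded quantile normalization and conversion to log2.

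Genotypes were compared per stage with lmFit and eBayes (limma 3.58.1, R 4.3.3) and Benjamini-Hochberg adjustment over 25697 probes. Stage steps and interactions came from 1 model with 10 groups. The scripts were checked on simulated data. Platform annotation gave 23978 probes 1 gene symbol and 1719 none, updated by gene ID. All 9 members were named, the probe with the highest mean signal standing for a gene in lists. Of each list up to 4 genes with the smallest p were named at a stage. The members and the 12 lists were chosen with earlier results of these data known. Surface ectoderm, skeletal muscle and heart lists were also computed: 1 ectoderm gene was called lower at E12.5 and 1 at E13.5, 1 muscle gene lower at E12.5, and 0 heart genes at any stage. Of 3 erythroid genes 0 were called. Alternatives were median scaling, log2 before quantile normalization, an offset of 50, no detection filter, a fit on detected probes, the brightest probe, the authors' processed values, the excluded arrays, 1 model over all stages, a replicate block, unadjusted p and leaving out each array. Replicates are labelled biological. Precision is limited by 3 or 4 arrays a group.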

Additional observations from a re-analysis of the deposited data

Results flagged for a closer look

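The genotype difference of *Rax* changed between E12.5 and E13.5 by -1.21 on the log2 scale, tested as an interaction (SE 0.30, limma adjusted p = 0.0426). The difference itself was 0.31 in the eye region of E12.5 and -0.91 in eyes of E13.5.

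Single arrays stood apart from the other 3 of their group in 4 of 39 checks, each of 1 probe in 1 group of 4 arrays. Chance gives about 1 in 20 for a single check, but checks on the same arrays are not independent. Control array 5 of E10.5 did so for 3 members, with 5.65 for *Sox2* (probe ILMN_2656102) against 8.31 to 8.48 in the other controls, 11.22 for *Meis1* against 10.86 to 10.87, and 11.24 for *Meis2* against 11.54 to 11.58. This array also had the erythroid sum of 3340, whose part in these values was not tested. Mutant array 1 of E12.5 had 7.08 for *Lhx2*, against 6.83 to 6.85 in the other mutants.

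Arrays that the authors left out held detected signals above all kept controls of their stage, with 40 arrays normalized together. Mutant array 3 of E13.5 had 7.66 for *Rax* (highest kept control 7.25), 6.42 for *Sox2* by probe ILMN_1248711 (5.69), 11.12 for *Meis1* (10.92) and 11.17 for *Meis2* (10.82). Control array 3 of E13.5 had 11.81 for *Meis1* and 11.06 for *Meis2*, against the same highest kept controls. Control array 4 of E9.5 had 11.30 for *Meis1* (10.73) and 11.59 for *Meis2* (11.35). Fewer probes were detected on 3 of these arrays than on any kept array, with 44% on mutant array 3 of E13.5, 26.2% on control array 3 of E13.5 and 33.1% on control array 4 of E9.5.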

How the results depend on the processing

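Neither *Lhx2* at E12.5 nor the *Rax* interaction changed direction under the alternatives run. The difference of *Rax* at E13.5, which was not called, was 0.20 with the excluded arrays. Called stage changes were followed only as counts, and the called genes of the lists were not rerun. The count of members called at E12.5 was 0 with median scaling, with the excluded arrays and with the authors' processed values and a replicate block, and 0 to 1 when each array was left out. At E13.5 it was 2 with median scaling, 2 with an offset of 50, 3 with a fit on detected probes, 1 in the model over all 36 samples and 6 at an unadjusted p, and 0 to 3 when each array was left out. At E11.5 it was 1 at an unadjusted p. The count of members whose genotype difference changed between stages was 0 with the excluded arrays and 0 to 2 when each array was left out; the second called was *Meis2* without control array 2 of E12.5 (0.77, limma adjusted p = 0.0871). Stage changes were 4 in mutants and 5 in controls with the excluded arrays, and 7 to 11 and 6 to 12 when each array was left out. At E9.5 and E10.5 the count was 0 throughout. Values of single probes were also compared with the main run, outside the runs that left out an array. Of these, 507 kept their sign and their side of the threshold, 4 lost the call and 15 gained it. A further 11, not called in either run, changed sign. Among these single-probe values, only *Lhx2* at E12.5 and the *Rax* interaction were called in the main run. The 4 losses were of these results, and most of the 507 were values that stayed uncalled.

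Over 17 pairs with the same replicate number in the titles, deviations from group means correlated at -0.57 to 0.80, 8 pairs were over 0.1, and 8 of 17 mutants were most like the control of their own number. At E9.5, 3 of 3 pairs were over 0.1 (0.11 to 0.57), so the numbers may pair these samples. At E10.5, 4 of 4 mutants were most like their own number, with pairs at 0.06 to 0.80. At E11.5, 2 of 4 pairs were over 0.1 (-0.57 to 0.61), and 1 of 4 mutants was most like its own number. At E12.5 and E13.5 no pair was over 0.1. With so few pairs a stage, a low correlation cannot show that samples were not paired. With the block 0 members were called at E9.5 and E10.5, as without it. With the replicate block, fitted on the authors' processed values, *Lhx2* at E12.5 had -1.03 (limma adjusted p = 0.965) and *Rax* at E13.5 had -0.90 (adjusted p = 0.292). A slide block was not run, since the files used here give no slide. With 44.6% to 54.9% of probes above background, *Pax6* and *Six6* could not be compared.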
